A study of Homo sapiens with 24 samples.

Results

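The FOXO factors and a set of genes that they induce were followed in T-47D cells, a luminal breast cancer cell line, after stimulation with heregulin (HRG), which binds the receptors ErbB3 and ErbB4. The set holds 10 genes of the 18374 that have a probe set with a single gene symbol on the array. It comprises the factors FOXO1, FOXO3 and FOXO4, the insulin receptor INSR and its substrates IRS1 and IRS2, and the FOXO-induced genes KLHL24, CCNG2, PIK3IP1 and SESN1. Members were taken by symbol, and the annotation gave exactly 1 such probe set to each of the 10.

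FOXO factors are forkhead transcription factors that activate genes of growth arrest, stress resistance and insulin sensitivity when growth factor signalling is low. Growth factor receptors such as ErbB3 activate PI3K and the kinase AKT, which phosphorylates the FOXO proteins. The phosphorylated factors are bound by 14-3-3 proteins and held in the cytoplasm, so that their target genes are transcribed less. INSR, IRS1 and IRS2 lie upstream of PI3K and are themselves known FOXO targets in several tissues. The arrays measured RNA and not the phosphorylation or location of the FOXO proteins.

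The study comprised 24 Affymetrix Human Gene 1.0 ST arrays in 8 groups of 3 biological replicates. Parental cells, cells transfected with a non-target control RNAi duplex (NTC) and cells transfected with either of 2 duplexes against P-Rex1 (P-Rex1 RNAi #1 and #2) each received HRG at 20 ng/ml or its vehicle, PBS, for 6 h. P-Rex1, encoded by PREX1, is a PIP3-dependent exchange factor that activates the small GTPase Rac. All groups are of the same line and were serum starved before stimulation. Silencing was transient, in whole cultures, and the parental cells carried no duplex. All values are log2 expression values from RMA, and the median of an array lay between 6.04 and 6.18. All 11 luminal markers examined, among them ESR1, GATA3 and KRT8, were above the array median on all 24 arrays. Of 11 markers of other cell types, only PTPRC (leukocytes) and PECAM1 (endothelium) were in the lowest 25% of probe sets on all 24 arrays, and CD3E was on 15. COL1A1 and ACTA2 were above the median on all 24, KRT14 on 22, CD68 on 21 and VIM on 11. VWF, COL3A1 and KRT5 lay between these limits on every array. The 4 arrays furthest from the median on 1 side of the second principal component (10.9% of the variance) are called those that stood apart. They were replicate 3 of parental vehicle, NTC HRG and P-Rex1 RNAi #2 HRG, and replicate 2 of P-Rex1 RNAi #1 vehicle. Their number was fixed and not taken from a gap in the scores. The last of the 4 was at 12.6 from the median, the next array at 8.43, and the furthest on the other side at -10.4.

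The targeted gene PREX1 was lower with both duplexes. Without HRG it lay at 10.36 to 10.63 on the 6 control arrays (parental and NTC), at 8.91 to 9.09 with P-Rex1 RNAi #1 and at 8.97 to 9.03 with #2. The difference from the controls was -1.52 with #1 and -1.51 with #2 on the log2 scale, with no overlap between silenced and control arrays (p = 0.0238 for each by a two-sided exact permutation test of 3 against 6 arrays, which cannot give a lower one). PREX1 was also lower after HRG in control cells, by 2.07-fold in parental and 1.96-fold in NTC cells, and in HRG-treated cells the duplexes left it 1.96-fold (#1) and 1.70-fold (#2) below the controls. The contrast in PREX1 between silenced and control cells was smaller with HRG than without (interaction 0.55 with #1 and 0.74 with #2, limma adjusted p = 0.00784 and 3.06e-05).

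In control cells HRG moved KLHL24 and IRS1 by more than the other members, and in opposite directions. With P-Rex1 RNAi #2 the change of IRS1 (0.43) was close in size to that of FOXO4 (-0.40). In parental cells KLHL24 fell 3.16-fold and IRS1 rose 1.86-fold. A gene was called at an adjusted p under 0.05 (limma, Benjamini-Hochberg over 21042 probe sets) and a fold change over 1.5. By this rule 1 of the 10 members was higher and 1 was lower in parental cells, against 2.86% of all probe sets higher and 2.41% lower. The same 2 genes were called in NTC cells, where 2.64% of probe sets were higher and 3.37% lower. The 12 HRG arrays lay wholly above the 12 vehicle arrays for IRS1 and wholly below them for KLHL24, which was the case for 5.1% and 4.51% of all probe sets, respectively. For each of the other 8 members the HRG and vehicle arrays overlapped.

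**Figure D1:**
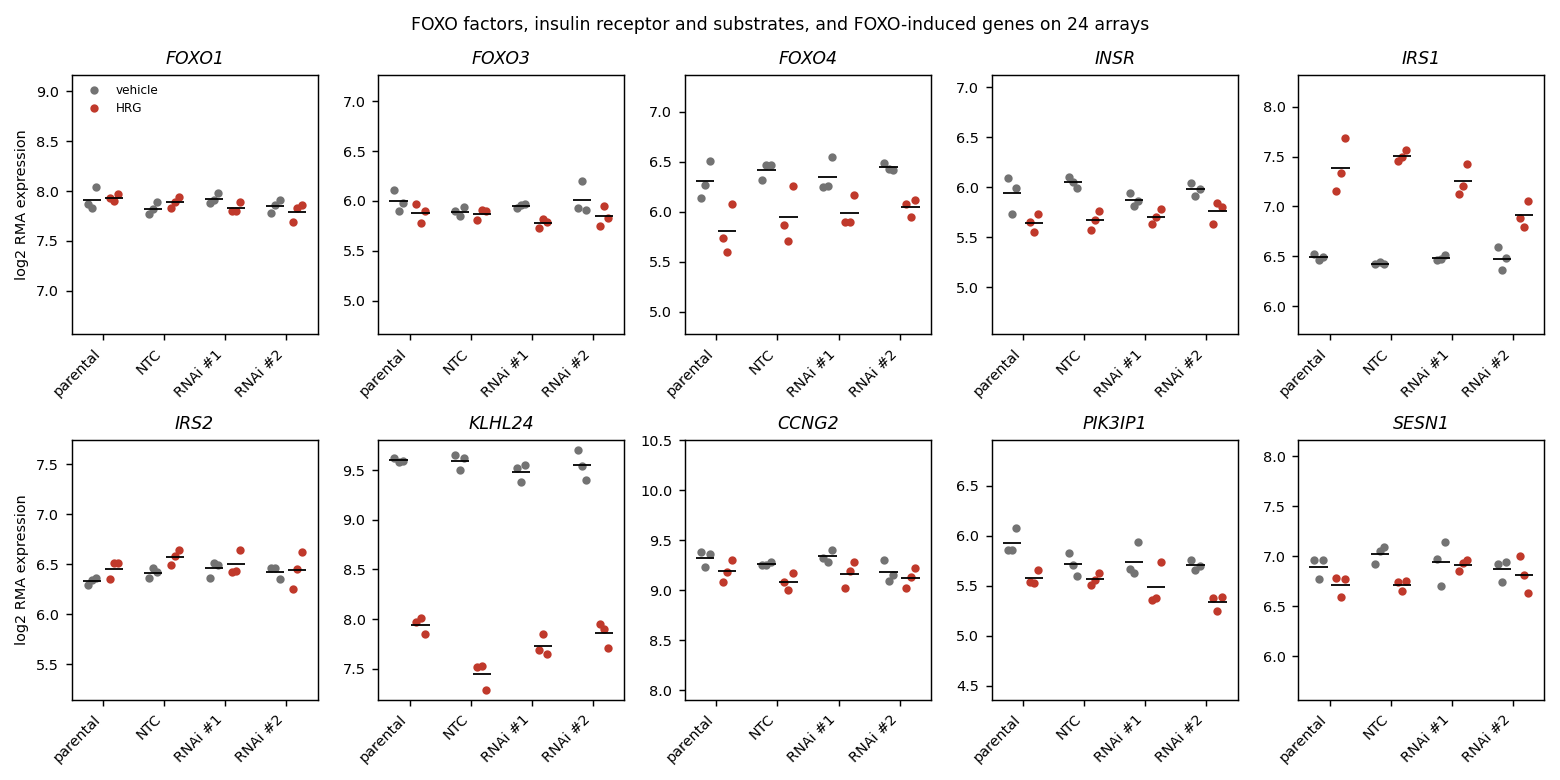
Log2 RMA expression (y axis) of each of the 10 genes on all 24 arrays, by cell group (x axis); grey points are vehicle arrays, red points HRG arrays, and black bars the group means of 3 arrays. KLHL24 lies between 9.38 and 9.71 on the vehicle arrays and between 7.29 and 8.01 on the HRG arrays; IRS1 lies at 6.36 to 6.59 and 6.79 to 7.68, and each gene has its own y axis of similar span.

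KLHL24 encodes a substrate adaptor of a cullin-based ubiquitin ligase and is a recurrent FOXO-induced transcript. To show the region in which its transcription starts, the 250 bases upstream of the start of KLHL24 (GRCh38.p14, RefSeq, chr3:183635373-183635622, plus strand) are given with the upstream 250 bases of IRS1 (chr2:226799821-226800070, minus strand), the member that moved the other way. Capitals mark matches on either strand to CAAAACA, the core of the insulin response element bound by FOXO factors, or to TGTTTT, a shorter forkhead core.
KLHL24: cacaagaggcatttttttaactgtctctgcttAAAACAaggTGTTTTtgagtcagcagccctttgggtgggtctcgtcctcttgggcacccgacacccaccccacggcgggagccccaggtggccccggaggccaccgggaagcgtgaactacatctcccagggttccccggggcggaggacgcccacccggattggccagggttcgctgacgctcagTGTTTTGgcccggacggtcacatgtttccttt
IRS1: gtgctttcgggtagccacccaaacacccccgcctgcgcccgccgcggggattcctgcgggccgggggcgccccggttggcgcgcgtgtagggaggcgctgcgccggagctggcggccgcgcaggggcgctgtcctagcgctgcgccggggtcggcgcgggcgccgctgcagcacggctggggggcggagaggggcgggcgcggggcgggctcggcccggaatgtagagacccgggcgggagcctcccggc
The KLHL24 stretch holds TGTTTT matches that begin 218, 209 and 32 bases before the start, and the last of these is also a CAAAACA match read on the other strand (TGTTTTG contains TGTTTT, so both are 1 site). The IRS1 stretch holds no match to either. Its GC content is 80.8%, against 60.8% for the KLHL24 stretch, and base composition was not taken into account in the matches. Another motif, the forkhead core TGTTTAC, was found in 0 of the 16 member promoters in the table and in 2.98% of all 35116 promoters. CAAAACA was found in 4.3% of all promoters and, among the members, upstream of KLHL24 and IRS2, where it begins 40 bases before the start. TGTTTT was found in 17.3% of all promoters and in 6 of the 16 member promoters, which belong to KLHL24, IRS2, FOXO1, FOXO3 and PIK3IP1. These are letter matches within 250 bases and say nothing of binding in T-47D cells.

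KLHL24 was at 9.63, 9.58 and 9.60 on the parental vehicle arrays and at 7.97, 8.01 and 7.85 on the parental HRG arrays. In NTC cells it was at 9.65, 9.51 and 9.62 without HRG and at 7.52, 7.53 and 7.29 with it. In cells with P-Rex1 RNAi #1 the values were 9.53, 9.38 and 9.55 without HRG and 7.69, 7.85 and 7.64 with it. With P-Rex1 RNAi #2 they were 9.71, 9.55 and 9.40 without HRG and 7.95, 7.90 and 7.71 with it. Every HRG array was thus more than 1 log2 unit below every vehicle array. The RNA came from whole cultures, in which fewer expressing cells and less RNA per cell cannot be told apart. The log2 change was -1.66 in parental cells (SE 0.08, adjusted p = 3.09e-12), -2.15 in NTC cells (SE 0.08, adjusted p = 7.28e-14), -1.76 with #1 (SE 0.08, adjusted p = 3.09e-12) and -1.70 with #2 (SE 0.08, adjusted p = 2.06e-11), all by limma. Over the 6 HRG and 6 vehicle arrays of the control cells the mean difference was -1.90 (p = 0.00216 by a two-sided exact permutation test, which cannot give a lower one with 6 against 6).

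The vehicle groups of KLHL24 overlapped in range with their neighbours in the order of means. Among the HRG groups NTC was lowest, and its 3 arrays lay below the 9 other HRG arrays. The HRG effect was 0.49 log2 units deeper in NTC than in parental cells (SE 0.12, unadjusted p = 0.000495), but the difference did not pass after adjustment over all probe sets (limma, adjusted p = 0.603). The log2 change with silencing was 92.4% (#1) and 89.2% (#2) of the mean change in control cells. With both duplexes (-1.76 and -1.70) it lay between the changes in parental (-1.66) and NTC (-2.15) cells. The difference in the HRG effect was 0.14 with #1 (95% interval -0.07 to 0.36, adjusted p = 0.447) and 0.21 with #2 (-0.01 to 0.42, adjusted p = 0.346), so neither passed.

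IRS1, the docking protein that couples the insulin and IGF1 receptors to PI3K, rose with HRG. It was at 6.52, 6.46 and 6.49 on the parental vehicle arrays and at 7.15, 7.34 and 7.68 on the parental HRG arrays. In NTC cells it was at 6.42, 6.44 and 6.42 without HRG and at 7.45, 7.50 and 7.57 with it. The vehicle arrays were close together, whereas the HRG arrays of parental cells had an SD of 0.27. With P-Rex1 RNAi #1 the values were 6.46, 6.47 and 6.52 without HRG and 7.13, 7.21 and 7.43 with it. With P-Rex1 RNAi #2 they were 6.59, 6.36 and 6.49 without HRG and 6.88, 6.79 and 7.05 with it. The 3 HRG arrays of #2 lay below all other HRG arrays and above all vehicle arrays.

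The log2 change of IRS1 was 0.90 in parental cells (SE 0.10, adjusted p = 2.45e-07) and 1.08 in NTC cells (SE 0.10, adjusted p = 1.72e-08), and it was 0.77 with #1 (SE 0.10, adjusted p = 3.56e-06) and 0.43 with #2 (SE 0.10, adjusted p = 0.00349), all by limma. The fold changes were 1.86, 2.11, 1.70 and 1.35, so the rise with #2 was under the 1.5-fold threshold. Over the control cells HRG and vehicle arrays differed by 0.99 (exact permutation test, two-sided, 6 against 6 arrays, p = 0.00216).

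The rise of IRS1 was smaller with P-Rex1 RNAi #2 than in control cells. Over all probe sets, calls after HRG were also fewer with #2. There 1.07% were higher and 0.656% lower, against 2.86% and 2.41% in parental and 2.64% and 3.37% in NTC cells. Whether the IRS1 difference goes beyond this was not tested. The log2 effect of HRG on IRS1 was 43.5% of that in the controls with #2 and 77.7% with #1. Tested as an interaction of HRG and silencing, the difference was -0.56 with #2 (SE 0.12, 95% interval -0.81 to -0.31, limma adjusted p = 0.00801) and -0.22 with #1 (SE 0.12, interval -0.47 to 0.03, adjusted p = 0.32). Of the 10 members IRS1 was the 1 called lower in the interaction with #2, against 1.85% of probe sets lower and 2.1% higher. With #1, 0 members were called, against 0.442% lower and 0.718% higher, and 0 members had an unadjusted p under 0.05. The 2 interactions share the control arrays. The HRG effects of the 2 duplexes differed by -0.34 (#2 minus #1, SE 0.14, limma unadjusted p = 0.0233, adjusted p = 0.579), which did not pass, so the data do not show that the duplexes differ. In this comparison 0 members and 0.0665% of probe sets were called. In HRG-treated cells IRS1 was 0.54 log2 units lower with #2 than in the controls (SE 0.08, adjusted p = 0.000104), which is 1.45-fold and under the threshold. Without the 4 arrays that stood apart, the interaction with #2 was -0.62 (adjusted p = 0.0156), and over each array left out in turn it ranged from -0.63 to -0.49 (adjusted p from 0.00137 to 0.0333).

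**Figure D2:**
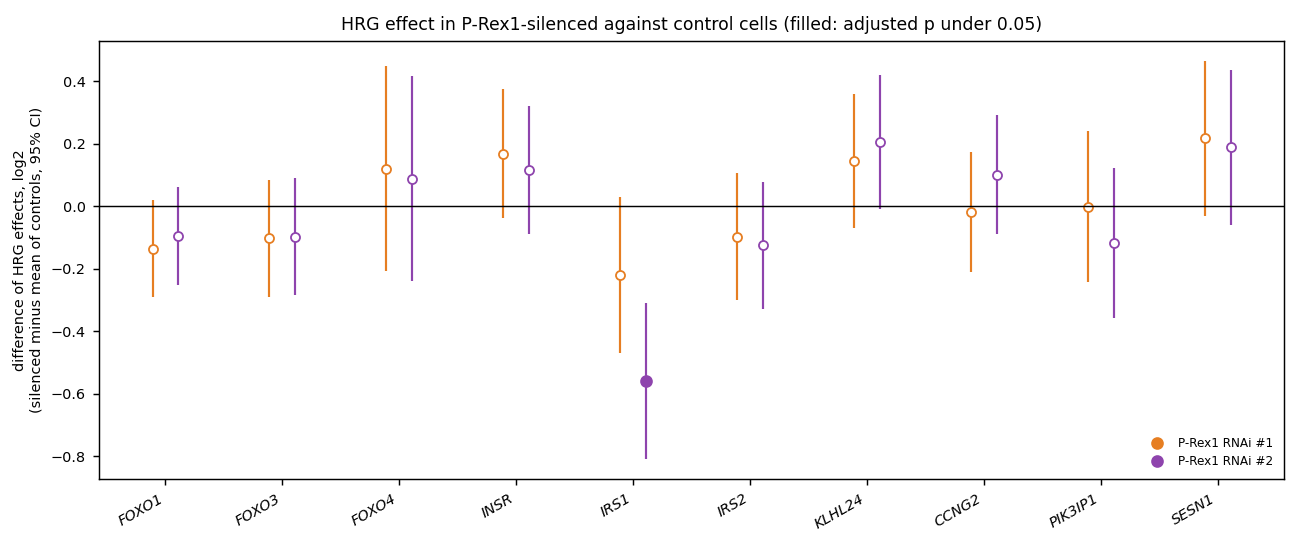
Difference between the HRG effect in P-Rex1-silenced cells and its mean in parental and NTC cells (y axis, log2 units) for the 10 genes (x axis), with 95% confidence intervals from limma; orange is P-Rex1 RNAi #1 and purple #2, and filled points passed an adjusted p of 0.05. IRS1 with #2, at -0.56, is the only filled point.

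Without HRG, no member passed the test for an effect of silencing. With P-Rex1 RNAi #1, 0 of 10 were called in either direction (0.0285% of probe sets), and with #2 0 of 10 (0.181%). At an unadjusted p under 0.05 there were likewise 0 members with either duplex (limma). In HRG-treated cells 0 of 10 were called with #1 (0.185% of probe sets) and 0 of 10 with #2 (1.01%). At an unadjusted p under 0.05, 2 members differed with #1 (IRS1 lower, SESN1 higher) and 4 with #2 (FOXO1, IRS1 and PIK3IP1 lower, KLHL24 higher). The share of all probe sets at that unadjusted p was not computed, so these counts cannot be judged against it. At the adjusted p alone, 713 of 21042 probe sets were higher and 354 lower with #1, and 1753 and 1412 with #2. KLHL24 with #2 and HRG had a mean of 7.85, between NTC (7.45) and parental (7.94) cells with HRG.

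Of the factors, FOXO4 was lower after HRG, while no change was detected in FOXO1. FOXO4 was at 6.14, 6.27 and 6.51 on the parental vehicle arrays and at 5.74, 5.60 and 6.08 on the parental HRG arrays. In NTC cells it was at 6.32, 6.47 and 6.47 without HRG and at 5.87, 5.71 and 6.26 with it. Replicate 3 with HRG in both cell groups was the highest of its group, and the NTC one is among the arrays that stood apart. The log2 change was -0.50 in parental cells (SE 0.13, adjusted p = 0.00433), -0.48 in NTC cells (SE 0.13, adjusted p = 0.00633), -0.37 with #1 (SE 0.13, adjusted p = 0.0382) and -0.40 with #2 (SE 0.13, adjusted p = 0.0377), all by limma and between 1.29-fold and 1.42-fold. FOXO4 thus passed the adjusted p in all 4 cell groups and the fold threshold in none. When probe sets without a symbol were tested as well, its adjusted p was 0.0518 with #1 and 0.0537 with #2. Without the arrays that stood apart, the change in NTC cells was -0.63 (adjusted p = 0.000437), which passed both. With arrays left out in turn, the adjusted p reached 0.0531 in NTC cells, 0.178 with #1 and 0.132 with #2.

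FOXO1, the factor best known from insulin signalling, lay between 7.77 and 8.04 (median 7.87) on the vehicle arrays and between 7.69 and 7.97 (median 7.87) on the HRG arrays. Its log2 change was 0.02 in parental cells (95% interval -0.11 to 0.15), 0.06 in NTC cells (-0.07 to 0.19), -0.09 with #1 (-0.22 to 0.03) and -0.05 with #2 (-0.18 to 0.08). No pair of neighbours in the order of its 8 group means was separated in range. FOXO3 lay between 5.85 and 6.20 on the vehicle arrays and between 5.73 and 5.97 on the HRG arrays, again with overlap between all neighbouring groups. Its log2 changes ran from -0.17 to -0.02, and the adjusted p was 0.0906 or higher in each cell group. A second probe set, paired with both FOXO3B and FOXO3 and so not counted as a member, was brighter. It lay between 9.890 and 10.181 on the vehicle arrays and between 9.684 and 9.887 on the HRG arrays. These did not overlap, and 4.51% of all probe sets were likewise wholly lower with HRG. This second probe set fell by 0.31 in parental and by 0.25 in NTC cells (limma adjusted p = 0.000481 and 0.00341), under the fold threshold. With #1 and #2 it changed by -0.20 and -0.21, against -0.17 and -0.17 for the FOXO3 probe set, and the difference between the probe sets was not tested. Signals of FOXO3 and its near-copy FOXO3B cannot be separated in the second one.

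INSR, the insulin receptor, lay between 5.73 and 6.10 (median 5.99) on the vehicle arrays and between 5.55 and 5.85 (median 5.69) on the HRG arrays, with a small overlap. It was lower by 0.29 in parental cells (1.23-fold, adjusted p = 0.00684) and by 0.38 in NTC cells (1.30-fold, adjusted p = 0.000785). With array weights the parental change had an adjusted p of 0.0559. With #1 and #2 the changes were -0.17 and -0.22 (adjusted p = 0.131 and 0.0696). The interactions were 0.17 (95% interval -0.04 to 0.37) and 0.12 (-0.09 to 0.32), so a difference between silenced and control cells was not shown. IRS2, the second main substrate, went from a median of 6.40 on the vehicle arrays to 6.50 on the HRG arrays. Its log2 changes were 0.12, 0.16, 0.04 and 0.01 in parental, NTC, #1 and #2 cells, and the adjusted p was 0.15 or higher. The upper limit of its 95% interval in NTC cells was 0.32. Over the 6 HRG and 6 vehicle arrays of the control cells IRS2 was 0.14 higher with HRG (two-sided exact permutation test, p = 0.0173, not adjusted).

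**Figure D3:**
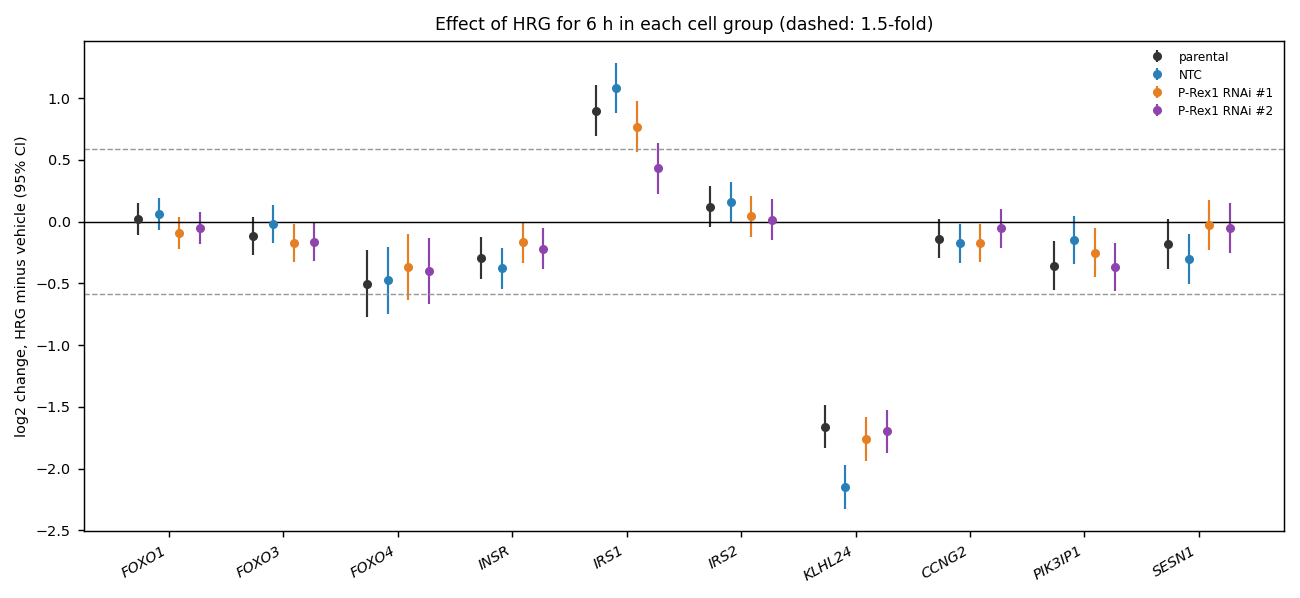
Log2 change after HRG for 6 h (HRG minus vehicle, y axis) of the 10 genes (x axis) in parental (black), NTC (blue), P-Rex1 RNAi #1 (orange) and #2 (purple) cells, with 95% confidence intervals from limma and dashed lines at 1.5-fold. KLHL24 lies beyond the lower line in all 4 cell groups, and IRS1 beyond the upper line in 3 of them.

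The other FOXO-induced members changed little. PIK3IP1, a transmembrane inhibitor of PI3K, lay between 5.60 and 6.08 on the vehicle arrays and between 5.25 and 5.74 on the HRG arrays. It was lower in parental cells (-0.36, adjusted p = 0.00557) and with #2 (-0.37, adjusted p = 0.00887), and its changes of -0.15 in NTC cells and -0.25 with #1 did not pass (adjusted p = 0.269 and 0.0521). The change with #1 passed under several other settings, as did those of CCNG2 in NTC cells and with #1. SESN1, a sestrin that restrains mTORC1, had a median of 6.95 on the vehicle arrays and of 6.77 on the HRG arrays. It was lower in NTC cells (-0.30, adjusted p = 0.0195), whereas its change of -0.18 in parental cells did not pass (adjusted p = 0.184). With #1 and #2 it changed by -0.03 and -0.05 (adjusted p = 0.874 and 0.82). CCNG2, an atypical cyclin linked to cell cycle arrest, had a median of 9.28 without and of 9.15 with HRG, and its changes of -0.14, -0.18, -0.17 and -0.05 had adjusted p-values of 0.192, 0.0843, 0.0911 and 0.748 in parental, NTC, #1 and #2 cells. KLHL24 was thus the 1 FOXO-induced member of 4 that passed the fold threshold.

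When the fold threshold was dropped, 4 of 10 members were lower in parental cells (FOXO4, INSR, KLHL24 and PIK3IP1) and 1 was higher, against 17.3% of probe sets lower and 13.5% higher. In NTC cells 4 were lower (FOXO4, INSR, KLHL24 and SESN1) and 1 was higher, against 17.6% and 13.6%. In an average over all 4 cell groups, added after the values were seen, 7 of 10 members were lower at an adjusted p under 0.05 and 1 was higher, against 23.6% of probe sets lower and 21.1% higher. The 7 were FOXO3, FOXO4, INSR, KLHL24, CCNG2, PIK3IP1 and SESN1, and apart from KLHL24 their mean changes were between -0.44 and -0.12. FOXO1 and IRS2 did not pass in this average (adjusted p = 0.74 and 0.0955). By the exact permutation test over the 6 and 6 control arrays, run for each of the 10 members and not adjusted, p was 0.348 for FOXO1, 0.184 for FOXO3 and 0.0173 or lower for the other 8. That test was not run over all probe sets, so the count of 8 cannot be judged against their share. With P-Rex1 RNAi #1 and a fold over 1.5, 1 member was higher (2.52% of probe sets) and 1 lower (1.15%). With #2, 0 members were higher (1.07%) and 1 was lower (0.656%). The median change of the 10 members was -0.16 in parental and in NTC cells, and that of all probe sets -0.03 and 0.03.

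Other genes that FOXO factors are known to induce were counted from a list. It was chosen, like the members and the lists below, with earlier results of these data known. The counts are therefore a description and no test of the list. Of 32 measured, 7 were lower and 0 higher in parental cells, and 8 were lower and 0 higher in NTC cells, and 7 were lower in both, against 2.41% and 3.37% of all probe sets lower. ERBB3 also stands among the luminal markers. The median change of the list was -0.17 in parental and -0.08 in NTC cells. PPARGC1A, a coactivator of mitochondrial and gluconeogenic genes, fell 1.94-fold in parental cells (adjusted p = 8.09e-09) and 2.05-fold in NTC cells. HBP1 and TP53INP1, a transcriptional repressor of cell cycle genes and a stress protein of autophagy and apoptosis, fell 1.82-fold and 1.77-fold in parental cells. ERBB3, the receptor of HRG itself, fell 1.71-fold, BCL6, a transcriptional repressor, 1.77-fold, and FBXO32, the ubiquitin ligase subunit atrogin-1, 1.70-fold. TNFSF10, the death ligand TRAIL, was the other gene called in both (1.51-fold and 1.69-fold lower). The list did not move in 1 direction, since CDKN1A and GADD45A, which p53 also induces, were higher at 1.24-fold and 1.42-fold in parental cells (adjusted p = 0.0181 and 1.35e-05), under the fold threshold, and IGFBP1, PCK1 and G6PC1, the FOXO targets of liver, had changes between -0.18 and 0.16.

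**Figure D4:**
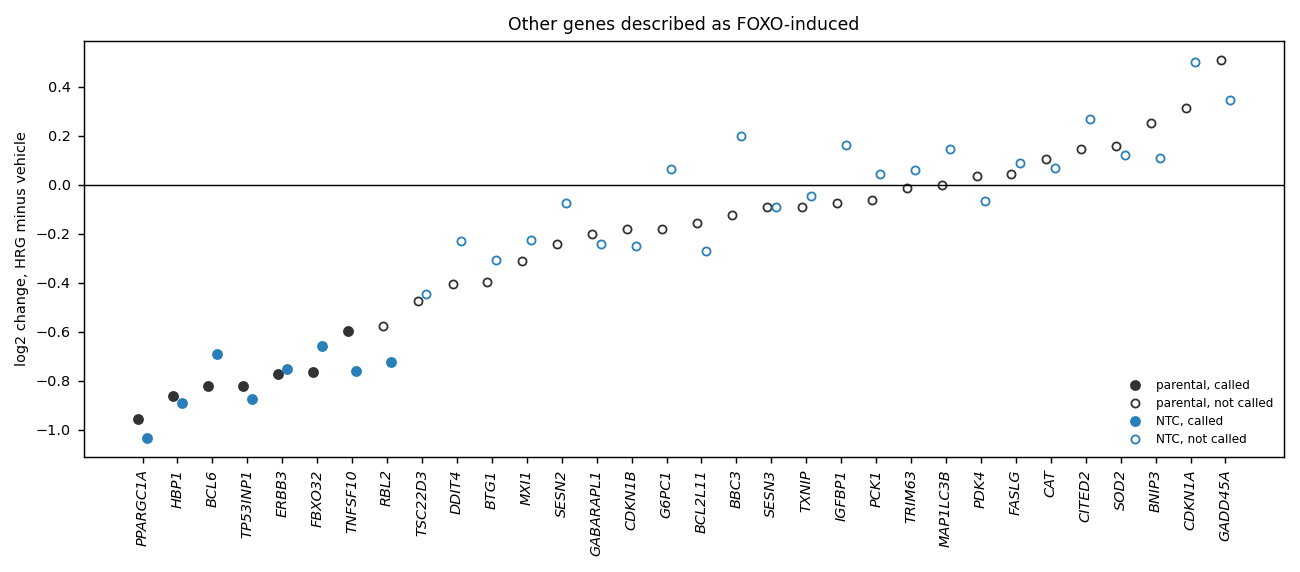
Log2 change after HRG (HRG minus vehicle, y axis) of 32 other FOXO-induced genes (x axis, in the order of the parental change) in parental (black) and NTC (blue) cells; filled points passed an adjusted p of 0.05 and 1.5-fold. The filled points are all below 0, and PPARGC1A is lowest, at -0.96 and -1.03.

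With P-Rex1 silencing, 3 of the 32 were lower with #1 (FBXO32, ERBB3 and PPARGC1A) and 3 with #2 (FBXO32, PPARGC1A and TP53INP1), and CDKN1A was higher with #1, against 1.15% and 0.656% of probe sets lower and 2.52% higher with #1. An interaction of HRG and silencing was called for 1 gene with each duplex, HBP1 with #1 (0.48, SE 0.11, adjusted p = 0.0321) and BCL6 with #2 (0.47, SE 0.10, adjusted p = 0.00604), against 0.718% and 2.1% of probe sets higher. For both genes the change after HRG was smaller in the silenced cells, and neither was called with the other duplex. These genes, like those of the next lists, were named after their values were seen where they fall outside the 6 largest of a list.

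Genes of the pathway that controls the FOXO proteins were counted from further lists. Of 12 measured PI3K and AKT kinase genes out of 16 listed, 0 were called after HRG in any cell group, in parental cells with a median change of -0.12. At this rule 2.86% of all probe sets were higher and 2.41% lower in parental cells, and 2.64% and 3.37% in NTC cells. With #1 the shares were 2.52% and 1.15%, and with #2 1.07% and 0.656%. Against such shares 0 of 12 is not unusual. Without a fold threshold (limma), 2 of the 12 were lower in parental cells and 6 in NTC cells, against 17.3% and 17.6% of probe sets. Of 10 measured PI3K and AKT inhibitors, TRIB1, a pseudokinase, rose 2.75-fold in parental and 2.80-fold in NTC cells. DEPTOR, an inhibitory mTOR partner, fell 1.67-fold and 1.91-fold. Over all probe sets 2.86% and 2.64% were higher and 2.41% and 3.37% lower. TRIB2 and TRIB3 of the same list were not called in either. TRIB1 had a smaller change with #2 (limma interaction -0.47, SE 0.12, adjusted p = 0.0265), and so had DEPTOR (0.41, SE 0.07, adjusted p = 0.000845). In this interaction 2.1% of all probe sets were higher and 1.85% lower. With #1 neither passed (TRIB1 -0.07, adjusted p = 0.756, and DEPTOR 0.19, adjusted p = 0.157). Calls after HRG were fewer with #2 over all probe sets, and whether these differences go beyond that was not tested.

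Of 12 measured genes of insulin and IGF signalling, 0 were called in parental cells and 1 in NTC cells, where SOS1, an exchange factor of Ras, fell 1.87-fold (adjusted p = 5.1e-06), against 3.37% of probe sets lower. Of 16 regulators of the FOXO proteins, such as the 14-3-3 proteins, 1 was higher in parental and in NTC cells, against 2.86% and 2.64% of probe sets. This was SFN, 14-3-3 sigma, which rose 1.57-fold and 1.78-fold. In the interaction with #2, MTOR of the kinase list was called higher (0.28, limma adjusted p = 0.0318). YWHAH, 14-3-3 eta, was called lower (-0.26, adjusted p = 0.0123), against 2.1% of probe sets higher and 1.85% lower.

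Across the 24 arrays the members fell into no single pattern. KLHL24 and IRS1 ran opposite to each other (r = -0.92) and FOXO4 and INSR ran together (r = 0.78), as descriptions over arrays that share the HRG contrast. Within groups, as deviations from the group means, KLHL24 and IRS1 had r = -0.35 and FOXO4 and INSR r = 0.26. The highest such value was that of IRS1 and CCNG2, r = 0.78, whereas over all 24 arrays these had r = -0.41. Of 18374 genes, those most like KLHL24 over the 24 arrays were PCMTD1, FOXN3 and TMEM139 (r = 0.98 for each), with r = 0.72, 0.24 and 0.02 within groups. Those most like FOXO1 were WDR38, PEAK3 and MIR30C1 (r = 0.79, 0.77 and 0.75, and 0.82, 0.69 and 0.62 within groups). For IRS2 they were A4GALT, CRB3 and DVL1 (r = 0.80, 0.80 and 0.79, and 0.75, 0.79 and 0.85 within groups). For CCNG2 they were KDM4A, PCDHB2 and DNAJB6 (r = 0.78, 0.76 and 0.76, and 0.62, 0.48 and 0.50 within groups). Such likeness is thus not shown to be a shared response to HRG. The arrays share their RMA normalization, and part of the likeness lies within groups and not between them.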

How the data were processed

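RNA of T-47D cells was measured on 24 arrays. The deposited values are log2 expression values of 28536 probe sets, which the authors normalized by RMA, a procedure that corrects the background, equalizes the distributions of the arrays and compresses the changes of dim probe sets. Its version and a genome build are not given in the sources used here. Precision is set by the 3 arrays of a group. Columns were matched to samples by name. The platform annotation gave 1 symbol to 19292 probe sets and several to 1750, and these 21042 were tested. All arrays entered 1 fit with a mean per group in limma 3.58.1 (R 4.3.3), with Benjamini-Hochberg adjustment. The interaction was the HRG effect in silenced cells minus its mean in parental and NTC cells. Rank Products, which the methods name, was not run, since it permutes over probe sets and has no interaction term. Exact permutation tests used scipy 1.17.1 (Python 3.11.15), and plots matplotlib 3.10.9. The code was tested on simulated data. Promoters came from RefSeq tables of GRCh38.p14. The members and lists were chosen with earlier results of these data known. All members were named, with PREX1, up to 6 genes of each list called in both parental and NTC cells, and the 3 genes most like FOXO1, IRS2, KLHL24 and CCNG2. Alternatives were a replicate block, other filters, variance models and thresholds, and arrays left out.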

Additional observations from a re-analysis of the deposited data

Results flagged for a closer look

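The effect of HRG on IRS1 differed between cells with P-Rex1 RNAi #2 and control cells by -0.56 on the log2 scale (SE 0.12, interaction in limma, adjusted p = 0.00801). IRS1 rose in all 4 cell groups, and the rise was smaller in the cells with this duplex, whose 3 HRG arrays all lay below the 6 HRG arrays of the control cells. Over all probe sets, too, fewer were called after HRG with #2 than in parental or NTC cells. Whether the IRS1 difference goes beyond this was not tested. With P-Rex1 RNAi #1 the IRS1 difference was -0.22 and did not pass (adjusted p = 0.32). PREX1 itself stood 1.96-fold below the controls with #1 and 1.70-fold below with #2 in HRG-treated cells, and its part in the result was not tested.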

How the results depend on the processing

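The calls of IRS1 and KLHL24 in parental and NTC cells and with P-Rex1 RNAi #1, that of KLHL24 with #2, and the sign of the IRS1 interaction with #2 held under each alternative run. The interaction kept its adjusted p (0.00137 to 0.0333), but at 1.47-fold it was under a 1.5-fold threshold, which left 0 members lower. Without a fold threshold 4 members were lower in parental cells, 4 in NTC cells, 2 with #1 and 3 with #2, 1 was higher with #2 (IRS1), and 1 was lower with #2 in HRG-treated cells (IRS1). Averaged over the cell groups, 7 members were lower. Without the 4 arrays that stood apart, 2 members were lower in NTC cells and 1 with #2 in HRG-treated cells. With each array left out in turn, 1 to 2 members were lower in parental cells (2, with FOXO4, without parental vehicle 1 or parental HRG 3), 1 to 2 in NTC cells (2, with FOXO4, without NTC HRG 3), and 0 to 1 with #2 in HRG-treated cells (IRS1, without parental HRG 1 or #2 HRG 3).

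Signs turned only for changes near 0 that were not called. Over the arrays left out, FOXO1 in parental cells ranged from -0.0179 to 0.0859, FOXO3 in NTC cells from -0.0450 to 0.0102, IRS2 with #1 from -0.0289 to 0.0808 and with #2 from -0.0777 to 0.111, SESN1 with #1 from -0.143 to 0.0742 and with #2 from -0.147 to 0.0369, and CCNG2 with #2 from -0.103 to 0.00461. The interactions with #1 ranged from -0.0762 to 0.0534 for CCNG2 and from -0.127 to 0.0971 for PIK3IP1. Without the 4 arrays that stood apart, IRS2 and SESN1 with #2 were at -0.0777 and 0.0369. The cause was not tested.

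Replicate numbers are shared between groups, but the labels tie them to no common culture or day. Same-numbered arrays of different groups had correlated deviations of r = -0.29 to 0.56 (median 0.19), and 66 of 84 pairs were over 0.1. Of 24 arrays 21 correlated best with their own number, a hint from the data alone. With the number as a replicate block 1 member was higher and 1 lower in parental cells, as without it, the IRS1 interaction with #2 had an adjusted p of 0.00183, and no call with the fold threshold changed. At the adjusted p alone, CCNG2 then passed in NTC cells (0.0436) and with #1 (0.0477), and PIK3IP1 with #1 (0.0214). Array weights also took these below 0.05 (0.02, 0.0139 and 0.00106) and INSR in parental cells above it (0.0559). PIK3IP1 with #1 passed without dim probe sets (0.0415) and without the 4 arrays that stood apart (0.0323), and CCNG2 in NTC cells with only the arrays compared (0.0454). Testing all probe sets took FOXO4 with #1 and #2 to 0.0518 and 0.0537. Each member had 1 probe set, so the choice among probe sets could not be varied.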
